A study of Mus musculus with 16 samples.

Results

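Collagen genes were followed in the outflow valves of E14.5 mouse embryos, in which valve cushions are being shaped into leaflets. The genes described are all those of the deposited table whose mouse symbol, looked up from the Ensembl identifier, is Col, a number, the letter a and a number, such as Col1a1. The rule found 37 genes among the 13964 of the table, out of 44 such symbols in the gene name table used. They were grouped into 11 fibrillar, 4 basement membrane, 4 beaded filament, 7 fibril-associated and 11 other collagens. Col4a3, Col4a4, Col6a4, Col6a5, Col19a1, Col20a1 and Col28a1 were not analysed here. All 37 members passed the filter on low values, which asked for a normalised count of 1 or more in 4 or more libraries.

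Collagens are extracellular proteins whose chains wind around each other in a rope-like helix. Fibrillar collagens assemble into the long fibrils that carry tension, type IV collagens form the sheets of basement membranes under endothelium and around muscle, type VI collagens make beaded filaments around cells, and fibril-associated collagens sit on the surface of fibrils. In developing heart valves, mesenchymal cells of the cushions secrete these proteins as the leaflets gain their layers, with types I and III as the main fibrillar collagens.

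Valve tissue was cut out by laser, and its RNA was amplified and sequenced. The 4 groups, each of 4 libraries from C57BL/6 embryos, were mutant pulmonary valve and wild-type (WT) pulmonary valve in library batch 2, and mutant aortic valve and WT aortic valve in library batch 1. The mutants are labelled Jag1flox;Nkx2.5-Cre: a floxed Jag1 allele with a Cre that is active in cells using the cardiac gene Nkx2-5, so that only descendants of those cells can lose Jag1, a membrane ligand of Notch receptors. The labels name neither flox nor Cre alleles in the WT embryos, and they tie no library to an embryo or to a way of choosing the captured region. The p-values measure the spread between these libraries. Within a valve the 4 libraries of a group come from 4 litters, so only libraries of different valves could share an embryo. In that case p-values for the mean of both valves may be too small. The main fit leaves out the litter pairs between genotypes. A fit with litter as a block, given at the end, had more genes with an unadjusted limma p under 0.05 in each comparison.

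Between 4.56 M and 8.68 M reads (M, megareads) were recovered per library, and 1 read was worth 0.117 to 0.232 normalised counts, the unit of all values below (CPM rescaled by the trimmed mean of M values). Values of a group are listed from library 1 to library 4. Jag1, the targeted gene, was 12.4, 4.70, 3.78 and 1.85 in mutant pulmonary libraries, against 13.6, 19.2, 25.7 and 15.4 in WT pulmonary libraries. It was 9.90, 11.4, 5.93 and 10.2 in mutant aortic libraries, against 20.2, 54.7, 39.7 and 18.8 in WT aortic libraries, so every mutant library lay below every WT library of its valve (log2 difference -1.74 with SE 0.45 in the pulmonary and -1.62 with SE 0.45 in the aortic valve).

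The libraries differed in tissue markers before any collagen was considered. Mylpf, which encodes a myosin light chain of fast skeletal muscle, was 7.16 in mutant pulmonary library 4, 0.569 in mutant aortic library 4, 0.801 and 0.734 in WT pulmonary libraries 2 and 4, and 23.2 and 1.75 in WT aortic libraries 2 and 4. In the other 10 libraries it was 278 to 900. Collagens are therefore also described over this split, Mylpf below 100 against at least 100, which holds 2 of 8 mutant and 4 of 8 WT libraries on its lower side. The split is made from a measured value and is no group of the study, so it gets ranges and counts and no p-value. The values nearest to the threshold were 23.2 below it and 278 in mutant aortic library 2 above it.

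The summed skeletal muscle list (12 of 12 genes in the table, 11 of them with no overlap) was 6.32 to 72.2 in the 6 libraries with Mylpf below 100, against 773 to 2503 in the other 10. Mylpf is among these 11 and is part of the sum, so its own separation was fixed by the split. Myog and Myod1, defining factors of skeletal muscle, were at 0 in 5 and 3 libraries, all with Mylpf below 100, and Cnmd, a cartilage marker, was at 0 in 6, of which 5 had Mylpf below 100. The cushion mesenchyme list (8 of 8 in the table, 3 of them with no overlap) summed to 7794 to 10283 with Mylpf below 100, against 1012 to 6982. Endocardium and endothelium (8 of 8, 2 of them with no overlap) summed to 1073 to 2172, against 234 to 1108. The cardiomyocyte list (9 of 10) summed to 152 to 509, against 831 to 3319. Only 1 of its genes had no overlap, Actc1 (54.5 to 173, against 639 to 2151), the largest member of the sum in every library of at least 100. Other members overlapped, such as Ryr2 (4.28 to 21.9, against 0.679 to 20.9). Cartilage (4 of 7, 1 of them with no overlap) summed to 0.267 to 8.07, against 4.86 to 95.4. Tendon (4 of 4, 1 of them with no overlap) summed to 31.4 to 110.4 against 47.2 to 129.7. Its gene without overlap, Tnmd, was at 0 in all 6 libraries below 100, against 4.03 to 20.6, and its other genes overlapped. Smooth muscle (5 of 5) was 279 to 415 against 150.1 to 526. Neuronal and Schwann (7 of 8; 18.3 to 48.4 against 21.6 to 253), erythroid (8 of 8; 1066 to 35001 against 1945 to 41105), macrophage (7 of 7; 28.2 to 87.9 against 40.8 to 106) and epithelial markers (4 of 4; 0 to 9.87 against 4.34 to 49.98) overlapped between the sides as well. Tbx20, a T-box factor of cushion mesenchyme, was 1032 to 1744 with Mylpf below 100, against 549 to 976 in 5 of the other libraries and 98.0 to 123 in the remaining 5 (mutant pulmonary 1, WT pulmonary 1, mutant aortic 1, WT aortic 1 and 3). The part of these tissues in the collagen values was not tested, and in bulk samples fewer cells of a type and less RNA per cell cannot be told apart.

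Across the 16 libraries, type III and type I collagens were the most abundant per length. Per kilobase of transcript, the mean level of Col3a1 was 174, of Col1a1 119 and of Col1a2 118. Next came both main type V chains, with Col5a2 at 42.5 and Col5a1 at 37.3 per kilobase, and the multiplexin gene Col18a1 at 39.2, whose C-terminal fragment is endostatin. Col9a3, a fibril-associated chain, had a level of 32.3 per kilobase, Col6a1 of 31.9 and Col4a1 of 28.5. Col2a1, the main fibrillar collagen of cartilage, followed at 27.9. The lowest levels per kilobase were those of Col5a3 (0.153) and Col7a1 (0.188), the anchoring fibril gene. The 37 genes together held 0.200% to 0.707% of the summed normalised counts of a library, and the fibrillar members held 62.3% to 74.6% of the collagen sum.

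**Figure D1:**
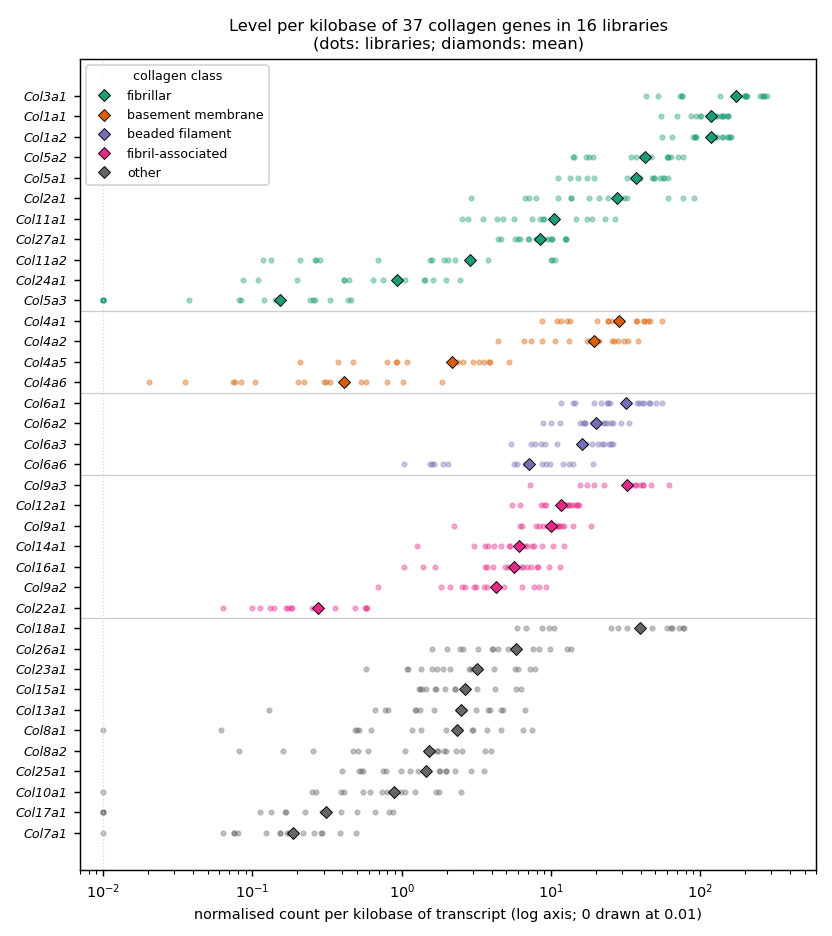
Normalised count per kilobase of transcript (log axis) of each of the 37 collagen genes, grouped by class; dots are the 16 libraries and diamonds their mean. Col3a1, Col1a1 and Col1a2 lead with means of 174, 119 and 118, and the dots of Col18a1, Col2a1, Col11a2 and Col4a6 spread more widely than those of Col1a1, Col12a1 and Col27a1.

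The members differed strongly in how much they varied between libraries. Col12a1 (highest over lowest library 2.81), Col1a1 (2.82), Col27a1 (2.83) and Col1a2 (2.91) had the narrowest ranges on the normalised count scale. Among members with a mean of at least 100, Col2a1 (31.2) and Col18a1 (13.2) had the widest. Some chains that assemble together kept nearly fixed proportions, as the per-kilobase ratio of Col1a1 to Col1a2, whose chains form type I collagen, was 0.909 to 1.13 in the 16 libraries. Col5a1 over Col5a2, the type V chains, was 0.728 to 1.06, and Col4a1 over Col4a2, the type IV chains of most basement membranes, was 1.19 to 2.03. Other partners varied more, with Col6a1 over Col6a2 at 1.01 to 2.27, Col9a3 over Col9a1 at 1.64 to 5.15 and Col4a5 over Col4a6 at 2.71 to 26.4. Between types, Col3a1 over Col1a1 was 1.72 to 2.34 in the 6 libraries with Mylpf below 100, against 0.592 to 1.45 in the other 10, with no overlap. Col2a1 over Col3a1 per kilobase was 0.0142 to 0.0794 with Mylpf below 100 and 0.0355 to 1.19 with at least 100, and Col18a1 over its paralog Col15a1 was 14.2 to 55.7 and 1.48 to 18.2.

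Positions in GRCm38 (GENCODE vM21) tie some of these genes together. Col4a1 (chromosome 8, 11198423 to 11312826, minus strand) and Col4a2 (8, 11312805 to 11449287, plus strand) lie head to head, and their annotated spans overlap by 22 bases, where reads cannot be assigned without strand. Col4a6 and Col4a5 lie head to head on chromosome X with 1308 bases between them. Col3a1 (1, 45311538 to 45349706, plus strand) and Col5a2 (1, 45374321 to 45503282, minus strand) lie tail to tail with 24614 bases between them. Col18a1 (10, 77052178 to 77166548, minus strand), Col11a1 (3, 114030540 to 114220718, plus strand), Col24a1 (3, 145292472 to 145552011, plus strand) and Col8a1 (16, 57624258 to 57754737, minus strand) are members that stood apart over the Mylpf split, described below. All are protein-coding.

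The 250 bases before a RefSeq start (GRCm38.p6) are shown for 5 such members, 2 with higher values where Mylpf was below 100 (Col3a1, whose groups nearly separate, and Col18a1 at its start inside the gene) and 3 with lower values there (Col11a1, Col24a1 and Col8a1). RefSeq promoters matched 29 of the 37 members, with 32 promoters. Capitals mark matches, on either strand, to 4 motifs: the CCAAT box (searched as CCAAT), the GC box (searched as GGGCGG), the TATA box (searched as TATAAA) and a core bound by Sox factors (searched as AACAAT). No motif's letters contain those of another.
Col3a1, chr1:45311288-45311537, plus strand: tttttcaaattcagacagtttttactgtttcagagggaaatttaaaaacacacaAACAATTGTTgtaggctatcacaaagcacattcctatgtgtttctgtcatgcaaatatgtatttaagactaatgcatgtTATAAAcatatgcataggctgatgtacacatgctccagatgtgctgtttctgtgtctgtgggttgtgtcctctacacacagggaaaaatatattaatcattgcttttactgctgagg
Col18a1, chr10:77113706-77113955, minus strand: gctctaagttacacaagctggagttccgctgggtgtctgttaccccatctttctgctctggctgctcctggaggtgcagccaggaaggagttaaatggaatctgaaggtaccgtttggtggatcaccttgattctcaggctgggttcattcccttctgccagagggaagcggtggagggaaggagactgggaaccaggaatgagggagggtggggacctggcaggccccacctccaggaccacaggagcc
Col11a1, chr3:114030290-114030539, plus strand: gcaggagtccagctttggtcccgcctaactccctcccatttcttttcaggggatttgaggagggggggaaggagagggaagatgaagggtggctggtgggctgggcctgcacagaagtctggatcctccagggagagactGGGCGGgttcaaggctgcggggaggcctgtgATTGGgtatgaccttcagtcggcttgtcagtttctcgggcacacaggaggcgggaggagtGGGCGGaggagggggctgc
Col24a1, chr3:145292222-145292471, plus strand: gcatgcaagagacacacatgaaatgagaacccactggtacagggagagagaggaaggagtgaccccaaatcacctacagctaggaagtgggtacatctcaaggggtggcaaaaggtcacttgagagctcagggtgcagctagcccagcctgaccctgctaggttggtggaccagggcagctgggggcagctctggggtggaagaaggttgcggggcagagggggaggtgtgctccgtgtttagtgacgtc
Col8a1, chr16:57754738-57754987, minus strand: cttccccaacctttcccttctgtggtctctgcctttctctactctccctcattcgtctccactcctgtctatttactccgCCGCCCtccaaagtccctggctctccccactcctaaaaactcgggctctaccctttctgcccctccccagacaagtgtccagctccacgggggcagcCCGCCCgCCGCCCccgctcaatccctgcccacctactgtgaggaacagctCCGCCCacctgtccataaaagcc

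None of the 4 motifs was found in all 5 windows. The Col3a1 window holds 1 TATAAA and an AACAAT that overlaps its own reverse complement ATTGTT, Col11a1 holds 2 GGGCGG and 1 CCAAT, and Col8a1 holds 4 GGGCGG, while Col24a1 and this Col18a1 window hold none of the 4. The window at the outer start of Col18a1 (chromosome 10, 77166531 to 77166780), not printed, holds 3 GC boxes and 1 CCAAT box. GGGCGG was found in 62.5% of the 32 collagen windows and in 32.75% of all 32841 promoter windows of the same length. CCAAT was found in 37.5% and 33.86%, TATAAA in 15.62% and 12.37%, and AACAAT in 3.125% and 9.427%. A match is a description of the letters and not a bound site.

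Over the Mylpf split, 3 collagens lay higher in every library below 100 than in every library of at least 100 (Col4a1, Col5a2 and Col18a1), and 3 lay lower in every one (Col11a1, Col24a1 and Col8a1). Of all 13963 genes tested, 2.6% were higher and 3.68% lower in this way. By class, all 4 basement membrane genes had a positive median log2 difference, below 100 minus at least 100 (median over the class 1.33), as had all 4 beaded filament genes (median 1.09). The fibrillar class was mixed (6 of 11 above 0, median 0.23), as were the fibril-associated (3 of 7, median -0.22) and the other collagens (4 of 11, median -0.68). The median over all 37 was 0.23, against 0.01 over all genes tested.

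**Figure D2:**
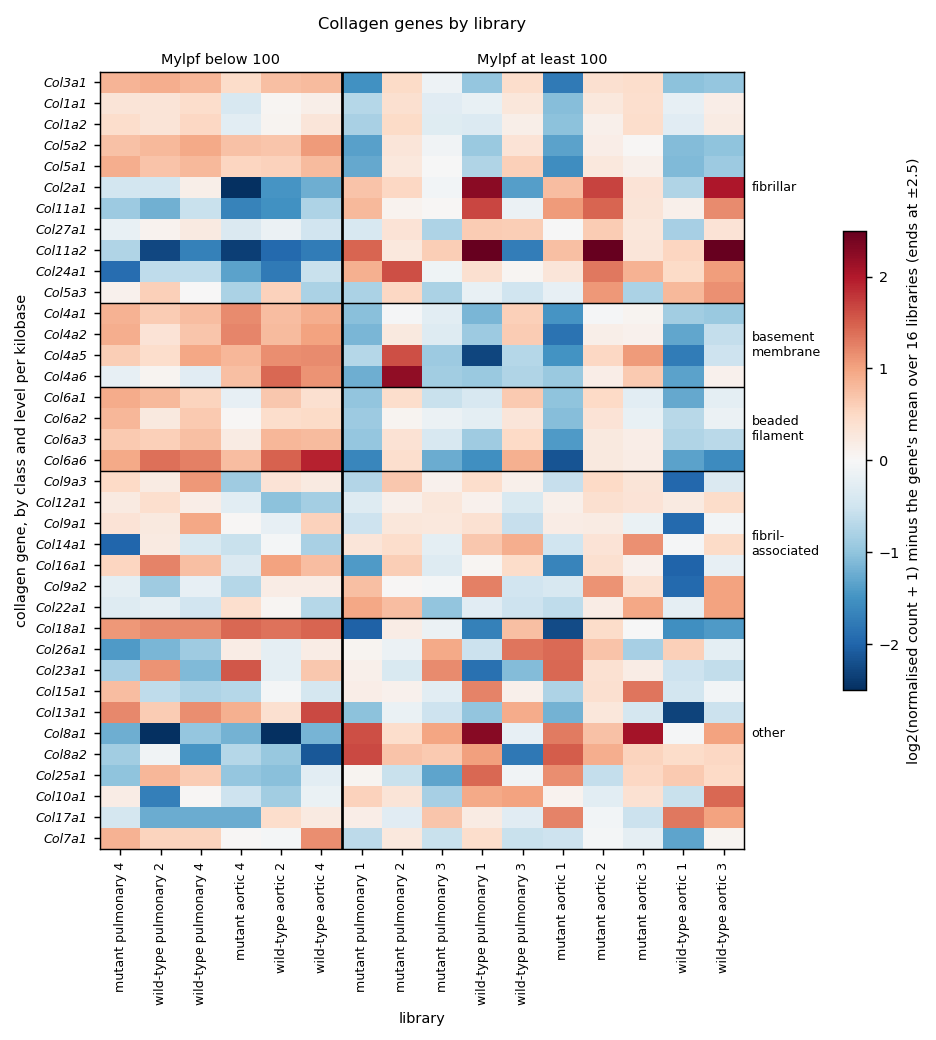
Log2(normalised count + 1) of 37 collagen genes minus each gene's mean over 16 libraries (colour), with the 6 libraries of Mylpf below 100 left of the line and the 10 of at least 100 right of it. Col3a1, Col5a1, Col5a2, Col18a1 and the type IV and VI genes are mostly red on the left, Col11a1, Col11a2, Col24a1 and Col8a1 mostly blue, and type I and most fibril-associated genes show no step at the line.

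Among fibrillar collagens, types III and V followed the libraries with Mylpf below 100. Col3a1, a fibrillar collagen of elastic and distensible tissues, was 288, 1149, 751 and 1491 in mutant pulmonary, 423, 1553, 1123 and 1476 in WT pulmonary, 241, 1086, 1113 and 1132 in mutant aortic, and 404, 1390, 423 and 1436 in WT aortic libraries. Over the split its lowest, median and highest values were 1132, 1456 and 1553 below 100, against 241, 587 and 1149 at or above it. A single library, mutant pulmonary 2, reached past the lowest value of the other side. The 5 lowest values of Col3a1, 241 to 423, were those of the 5 libraries with Tbx20 at 98.0 to 123.

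Col5a2, the type V alpha 2 chain that helps start fibrils, was 93.5, 298, 228 and 403 in mutant pulmonary, 127, 425, 308 and 469 in WT pulmonary, 95.2, 270.5, 246 and 402 in mutant aortic, and 114, 395, 119 and 511 in WT aortic libraries. Its sides did not overlap, with 395, 414 and 511 below 100, against 93.5, 177 and 308 at or above it. Col5a1, its partner chain, was 112, 331, 272 and 515 in mutant pulmonary, 163, 449, 414 and 482 in WT pulmonary, 93.3, 328, 299 and 400.1 in mutant aortic, and 128, 409.8, 146 and 472 in WT aortic libraries. WT pulmonary library 3, at 414 with Mylpf at 485, was the only library of at least 100 to pass the lowest value below 100, which was 400.1 in mutant aortic library 4. Col5a3, the third type V chain, was at 0 in 5 libraries and at most 2.82.

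Type I collagen did not separate the sides. Col1a1, its alpha 1 chain, was 415, 895, 555 and 845 in mutant pulmonary, 599, 847, 828 and 916 in WT pulmonary, 325, 809.6, 906 and 516 in mutant aortic, and 588, 699, 761 and 754 in WT aortic libraries. Below 100 it was 516 to 916 with a median of 799.8, against 325 to 906 with a median of 680.0, so the ranges overlap almost wholly. Col1a2, the alpha 2 chain, was 346, 848, 490.0 and 824 in mutant pulmonary, 479, 761, 672 and 864 in WT pulmonary, 297, 662, 817 and 501 in mutant aortic, and 497, 635, 695 and 749 in WT aortic libraries. Mutant aortic library 4 stood low for type I among the libraries below 100 (516 and 501) while its Col3a1 was 1132.

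Types XI and XXIV lay on the other side of the split. Col11a1, whose chain sits inside thin fibrils and which was named after its values were seen, was 112, 67.9, 64.8 and 33.6 in mutant pulmonary, 205, 27, 57.2 and 43.1 in WT pulmonary, 134, 176, 80.0 and 19.3 in mutant aortic, and 69.0, 21.5, 145 and 36.9 in WT aortic libraries. It was 19.3 to 43.1 below 100 (median 30.3), against 57.2 to 205 (median 96.1), with no overlap. Col24a1, a fibrillar collagen described in developing bone, was 10.3, 17.6, 4.62 and 0.618 in mutant pulmonary, 6.99, 2.94, 5.33 and 2.94 in WT pulmonary, 6.56, 14.1, 10.1 and 1.42 in mutant aortic, and 7.47, 0.783, 11.6 and 3.16 in WT aortic libraries. It was at most 3.16 below 100 and at least 4.62 above it, at levels where 1 read is worth 0.117 to 0.232.

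Col2a1 and Col11a2, cartilage collagens named after their values were seen, reached their highest values in the same 3 libraries. Col2a1 was 312 in mutant aortic library 2, 462 in WT pulmonary library 1 and 394 in WT aortic library 3, against 14.8 to 165 in the other 13 libraries. Col11a2 was 64.1, 61.4 and 60.3 in those libraries, against 0.711 to 22.9 in the others. The cartilage list summed to 94.0, 95.4 and 92.0 there, against 0.267 to 34.0 elsewhere, and its part in these values was not tested. Below 100, Col2a1 was 14.8 to 108 (median 55.2), against 36.6 to 462 (median 149), and Col11a2 was 0.711 to 4.20 (median 1.42), against 1.62 to 64.1 (median 13). Col27a1, a fibrillar collagen of cartilage, was 43.7 to 71.1 below 100, against 33.8 to 95.7.

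**Figure D3:**
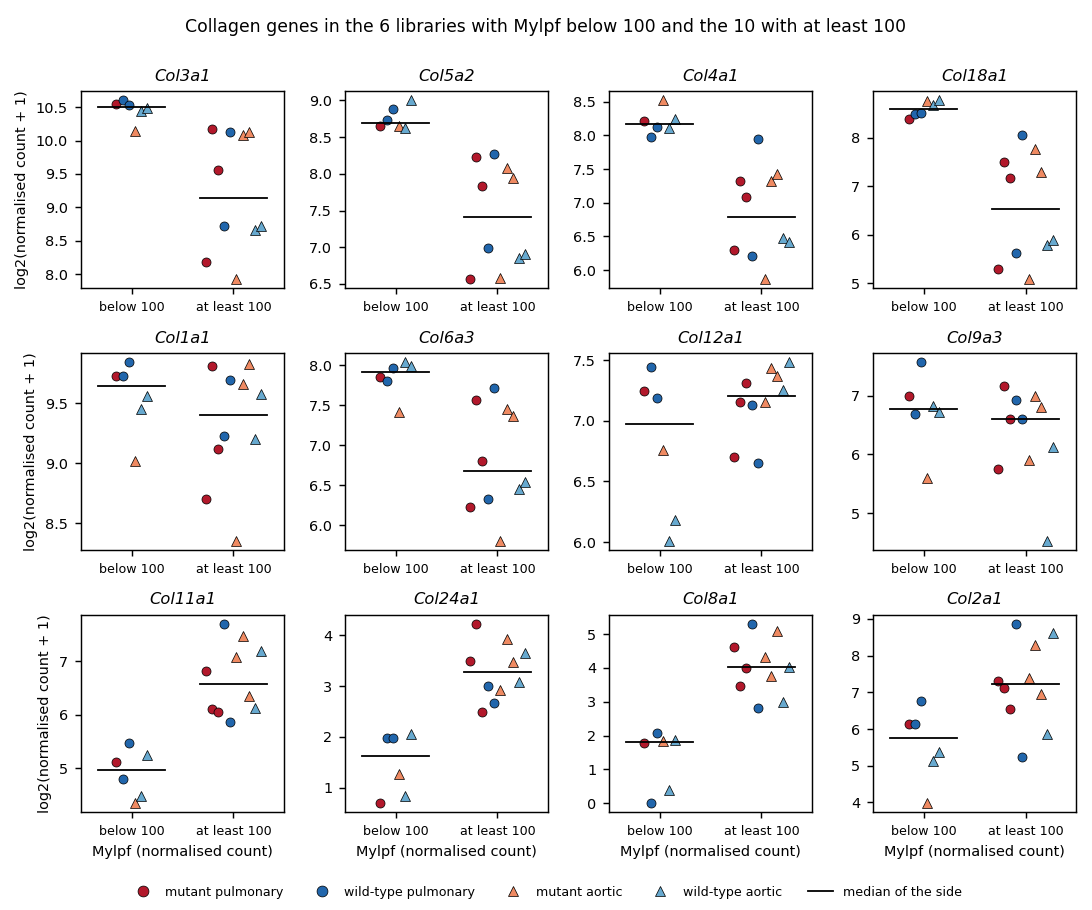
Log2(normalised count + 1) of 12 collagen genes in the 6 libraries with Mylpf below 100 (left of each panel) and the 10 with at least 100 (right); circles are pulmonary and triangles aortic libraries, colours give the genotype and black lines the median of a side. Col5a2, Col4a1 and Col18a1 are higher on the left with no overlap, Col11a1, Col24a1 and Col8a1 lower with no overlap, and Col1a1, Col12a1 and Col9a3 overlap.

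The basement membrane collagens were higher where Mylpf was below 100. Col4a1 was 77.4, 158, 135 and 295 in mutant pulmonary, 73.0, 250.1, 245 and 277 in WT pulmonary, 57.2, 159, 171 and 366 in mutant aortic, and 88.3, 276, 84.2 and 303 in WT aortic libraries. Its ranges were 250.1 to 366 below 100, against 57.2 to 245, so the gap between WT pulmonary libraries 2 and 3 decides that they do not overlap. Col4a2 was 47.2, 124, 84.5 and 199.8 in mutant pulmonary, 56.0, 135, 164 and 172 in WT pulmonary, 28.6, 117, 113 and 246 in mutant aortic, and 42.4, 182, 69.0 and 213 in WT aortic libraries. It overlapped only through WT pulmonary library 3. Col4a5 and Col4a6, chains of more specialised basement membranes, were 14.7 to 25.4 and 1.35 to 6.74 below 100, against 1.36 to 34.2 and 0.136 to 12.3, each with its highest value in mutant pulmonary library 2. The summed endocardial and endothelial list, whose cells lie on basement membrane, leaned the same way with overlap (1073 to 2172 against 234 to 1108). Of its 8 genes 2 had no overlap, Tek and Nfatc1, and Emcn leaned the other way (2.94 to 15.2 against 4.56 to 22.6). The summed skeletal muscle and cardiomyocyte lists moved in the other direction. Actc1 was the only cardiomyocyte gene without overlap and the largest member of that sum in every library of at least 100. Other cardiomyocyte genes overlapped, such as Myh6 (0.612 to 20.2 against 0.420 to 112). The cardiomyocyte sum therefore does not show that cardiomyocyte content follows the split. The smooth muscle list overlapped (279 to 415 against 150.1 to 526). The part of these cell types in the type IV values was not tested.

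The type VI genes had the same direction, with overlap. Col6a1, whose chain is shared by type VI trimers, was 59.2, 161, 79.2 and 226 in mutant pulmonary, 88.9, 208, 185 and 173 in WT pulmonary, 57.7, 166, 97.8 and 101 in mutant aortic, and 47.7, 188, 99.4 and 155 in WT aortic libraries. Col6a3, the long alpha 3 chain, was 74.2, 189, 111 and 231 in mutant pulmonary, 79.1, 223, 208 and 248 in WT pulmonary, 54.7, 175, 164 and 169 in mutant aortic, and 86.6, 261, 91.7 and 253 in WT aortic libraries. Over the split Col6a3 had a median of 239 below 100 and of 101 at or above it. Col6a6, named after its values were seen, had the widest median difference of all members (2.60 on the log2 scale), with 76.1 to 168 below 100, against 9.03 to 81.8, where WT pulmonary library 3 alone overlapped. Col6a2 was 89.5 to 155 below 100, against 41.3 to 110.

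Fibril-associated collagens were mixed in direction over the split, and all 7 overlapped. Col12a1, which coats type I fibrils, was 103, 141, 158 and 151 in mutant pulmonary, 139, 173, 99.4 and 145 in WT pulmonary, 141, 172, 164 and 107 in mutant aortic, and 152, 63.3, 178 and 71.4 in WT aortic libraries. Within the aortic libraries it was lower in the 3 below 100 (63.3 to 107) than in the other 5 (141 to 178), while the pulmonary libraries overlapped. Col9a3, a chain of the type IX collagen that decorates type II fibrils, was 52.8, 141, 95.6 and 126 in mutant pulmonary, 119.9, 102, 96.6 and 188 in WT pulmonary, 58.8, 126, 111 and 47.4 in mutant aortic, and 22, 112, 69.0 and 104 in WT aortic libraries. Its highest value was in WT pulmonary library 4 (188, with Col2a1 at 108), and that of Col2a1 in WT pulmonary library 1 (462, with Col9a3 at 119.9). Col14a1 was 8.15 to 41.4 below 100, against 24.5 to 79.2 (median log2 difference, below 100 minus at least 100, -0.86). Col16a1 was 18.9 to 59.4, against 5.43 to 38.4 (0.83), and Col9a1, Col9a2 and Col22a1 overlapped too.

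Among the other collagens, Col18a1 and Col8a1 stood at opposite ends. Col18a1, a heparan sulfate collagen of vascular and epithelial basement membranes, was 38.1, 179, 142 and 335 in mutant pulmonary, 48.4, 358, 265 and 361 in WT pulmonary, 32.9, 217, 157 and 429 in mutant aortic, and 54.0, 405, 58.7 and 434 in WT aortic libraries. It was 335 to 434 below 100 (median 383), against 32.9 to 265 (median 100.4). The 5 libraries with Tbx20 at 98.0 to 123 had its 5 lowest values, 32.9 to 58.7. Col15a1, its closest paralog, was 6.73 to 21.7 below 100, against 6.81 to 32.4, and so overlapped. The step at low Tbx20 was not particular to Col18a1 and Col3a1. Col5a2 was 93.5 to 127 in those 5 libraries, against 228 to 308 in the other 5 of at least 100, and Col4a1 57.2 to 88.3, against 135 to 245. Col4a2, Col5a1, Col6a3, Col6a6 and Col13a1 were lower there without overlap too, and no member was higher there without overlap. The share of all genes with this step was not determined, so the step is not shown to be particular to collagens.

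Col8a1, a short-chain network collagen of vessel walls and cornea, was 23.7, 10.1, 15.1 and 2.47 in mutant pulmonary, 38.2, 0, 6.02 and 3.18 in WT pulmonary, 19.1, 12.5, 33.4 and 2.56 in mutant aortic, and 6.93, 0.313, 15.3 and 2.63 in WT aortic libraries. The 0 reads in WT pulmonary library 2 allow up to 0.401 normalised counts (3 reads, counting error only). It was at most 3.18 below 100 and at least 6.02 above it, the widest gap of all members on the log2(value + 1) scale. Col8a2, the partner chain, was 17.3, 8.59, 8.26 and 2.22 in mutant pulmonary, 10.9, 4.54, 0.695 and 1.1 in WT pulmonary, 15.7, 10.02, 7.57 and 2.56 in mutant aortic, and 7.06, 2.04, 7.41 and 0.351 in WT aortic libraries. It overlapped only through WT pulmonary library 3 at 0.695. Col13a1, a transmembrane collagen, was 8.30 to 21.1 below 100, against 0.407 to 12.3, and overlapped, as did Col10a1, Col17a1, Col26a1, Col23a1, Col25a1 and Col7a1.

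Within a valve the split separated more genes, as fewer libraries were set against each other. In the pulmonary valve, 8 collagens were higher in the 3 libraries below 100 (Col3a1, Col4a1, Col5a1, Col5a2, Col6a3, Col6a6, Col7a1 and Col18a1; all genes 7.76%) and 5 were lower (Col8a1, Col11a1, Col17a1, Col24a1 and Col26a1; all genes 8.51%). In the aortic valve, 9 were higher in the 3 libraries below 100 (Col3a1, Col4a1, Col4a2, Col4a6, Col5a1, Col5a2, Col6a6, Col13a1 and Col18a1; all genes 12.1%) and 7 were lower (Col2a1, Col8a1, Col8a2, Col11a1, Col11a2, Col12a1 and Col24a1; all genes 12.2%). In the pulmonary valve, WT pulmonary library 3 lay on the at-least-100 side with collagen values near the other side, and without it the count over all 16 libraries was 12 in place of 6 (7 higher and 5 lower; all genes 4.04% higher and 4.91% lower). With the threshold at 20 or 300 in place of 100, which moves WT aortic library 2 or mutant aortic library 2 to the other side, the count was 1 (Col5a2; all genes 3.74% in either direction) or 0 (all genes 2.95%).

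In the genotype comparison, no collagen gene passed the threshold in either valve. With limma (Benjamini-Hochberg over 13963 genes), 0 of 37 collagens were called in the pulmonary valve, in the aortic valve, in their mean and in the difference between valves, with a smallest adjusted p of 1.00 each; the background was 0% of all genes in each fit. At an unadjusted p under 0.05 there were 2 collagens in the pulmonary valve (all genes 3.13%), 0 in the aortic valve (1.4%), 1 in the mean of both (2.79%) and 1 in the difference between valves (1.89%). edgeR and DESeq2 on the recovered reads called 0 collagens in each fit too. The share of all genes that they called is not given here, so this 0 says nothing particular about collagens. Jag1, the targeted gene, was not called by limma either. Its limma adjusted p was 0.9999 in the pulmonary valve, 0.9997 in the aortic valve and 0.218 in their mean. A gene that was not called may therefore still differ between the genotypes. In neither valve did any collagen have all mutant libraries above or below all WT libraries (0 of 37; all genes 0.938% higher and 1.05% lower in the pulmonary, 0.759% and 0.824% in the aortic valve).

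The collagen sum was 4378 ± 1745 in mutant and 5352 ± 1280 in WT pulmonary libraries (SD, n = 4 each). It was 4369 ± 1495 in mutant and 4528 ± 1621 in WT aortic libraries, so the means lie within 1 SD of each other in both valves. Fibrillar genes summed to 3046 ± 1214 in mutant and 3700 ± 812 in WT pulmonary libraries, and to 2991 ± 1095 in mutant and 3110 ± 944 in WT aortic libraries. Basement membrane genes summed to 299.5 ± 164 in mutant and 355 ± 153 in WT pulmonary, and to 332 ± 226 in mutant and 333 ± 216 in WT aortic libraries. For beaded filament genes the sums were 419 ± 225 in mutant and 538 ± 191 in WT pulmonary, and 372 ± 148 in mutant and 469 ± 262 in WT aortic libraries. Fibril-associated genes summed to 354 ± 72.0 in mutant and 413 ± 63.6 in WT pulmonary, and to 349.7 ± 103 in mutant and 304 ± 62.6 in WT aortic libraries. The 6 libraries below 100 had collagen sums of 4867 to 6472, against 2148 to 5377 in the other 10, and the ranges overlap. In 3 groups the libraries below 100 had the highest sums, while in the mutant aortic group libraries 2 (5377) and 3 (5083) lay above library 4 (4867), the one below 100.

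**Figure D4:**
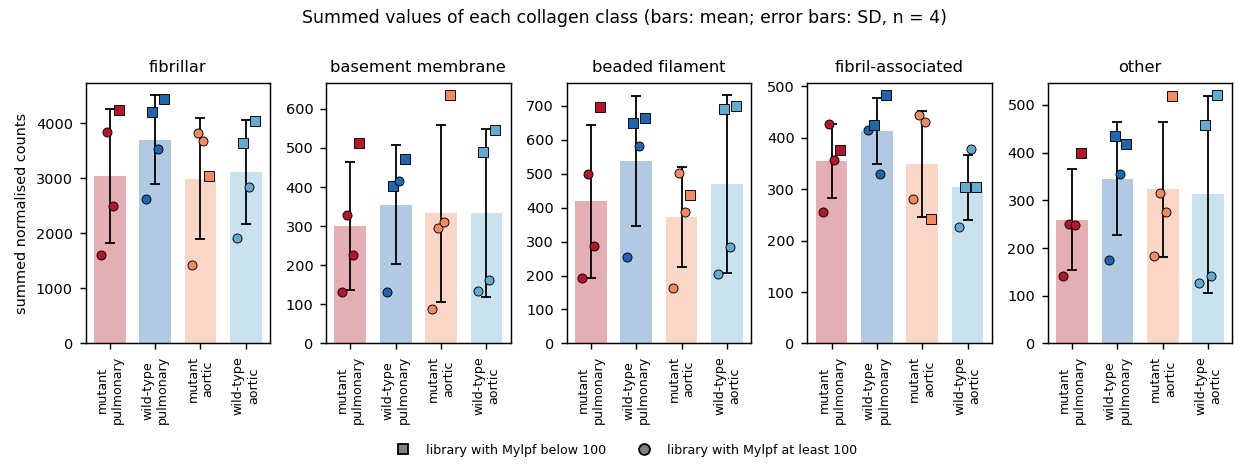
Summed normalised counts of each collagen class by group; bars are means, error bars SD with n = 4, squares libraries with Mylpf below 100 and circles libraries with at least 100. Mutant and WT means differ by less than 1 SD in each class and valve, and the squares lie high in the basement membrane panel, at 402 to 635, against 89.4 to 416 for the circles.

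In the pulmonary valve the median log2 difference of the 37 collagens, mutant minus WT, was -0.22 (22 below 0 and 15 above), against 0.01 over all genes. Leaving out 1 library gave -0.36 to 0.02, with 0.02 without mutant library 1, -0.36 without mutant library 2, -0.33 without mutant library 4 and -0.10 without WT library 4. In the aortic valve it was 0.07 (17 below and 20 above), against 0.02, and leaving out 1 library gave -0.31 (without WT library 1) to 0.40 (without mutant library 1), with both signs. The Mylpf side is uneven between the genotypes, with 1 mutant and 2 WT libraries below 100 in each valve. Among libraries of at least 100 alone, the median was -0.15 in the pulmonary and 0.42 in the aortic valve. Among libraries below 100, it was -0.06 and -0.32, from 1 mutant and 2 WT libraries per valve, and with the Mylpf side as a term it was -0.07 and 0.13. The difference between the valves' genotype effects had a median of -0.30 (28 of 37 below 0), against -0.02 over all genes, and no collagen passed its test. Without WT aortic library 1 it was -0.03, without mutant aortic library 2 -0.07 and without mutant pulmonary library 1 -0.08, and leaving out 1 library gave -0.34 at the lowest.

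The smallest p in the pulmonary valve was that of Col25a1, a transmembrane collagen of neurons and muscle. It was 8.65, 5.23, 2.66 and 3.58 in mutant pulmonary, 23.9, 15.2, 7.64 and 13.2 in WT pulmonary, 19.6, 5.01, 12.1 and 3.70 in mutant aortic, and 13.3, 3.45, 11.9 and 6.67 in WT aortic libraries. The mutant was lower in 4 of 4 pulmonary litter pairs, a count whose share over all genes was not determined. The groups overlap by mutant library 1 (8.65) against WT library 3 (7.64). The log2 difference was -1.40 (SE 0.52, 95% interval -2.51 to -0.30; limma unadjusted p = 0.0157, adjusted p = 1.00), against 0.07 (SE 0.52) in the aortic valve. It does not hold after adjustment over all genes, and Benjamini-Hochberg adjusted p was 0.778 with litter as a block.

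Col27a1 had the second smallest p in the pulmonary valve and the smallest for the difference between valves. It was 45.8, 77.4, 35.1 and 53.2 in mutant pulmonary, 95.7, 65.2, 93.8 and 71.1 in WT pulmonary, 60.3, 95.5, 74.4 and 47.1 in mutant aortic, and 33.8, 54.5, 77.8 and 43.7 in WT aortic libraries. Its log2 difference was -0.65 (SE 0.29) in the pulmonary and 0.41 (SE 0.29) in the aortic valve, and the difference between them was -1.06 (SE 0.41; limma unadjusted p = 0.0200, adjusted p = 1.00). In both valves mutant and WT libraries overlap.

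Over both valves, Col23a1 and Col8a2 had the smallest p. Col23a1, a transmembrane collagen, was 15.9, 10.7, 33.9 and 7.66 in mutant pulmonary, 3.24, 32.3, 6.25 and 6.12 in WT pulmonary, 40.8, 19, 16.4 and 43.9 in mutant aortic, and 9.78, 11.9, 9.04 and 23.5 in WT aortic libraries. The mutant was higher in 7 of 8 litter pairs (log2 difference 0.91, SE 0.41; limma unadjusted p = 0.0407, adjusted p = 1.00), and WT pulmonary library 2 at 32.3 is the exception. Col8a2 was higher in the mutant of 8 of 8 litter pairs (log2 difference 1.1, SE 0.52; limma unadjusted p = 0.0504, adjusted p = 1.00). Over the Mylpf split its median was 2.13 below 100, against 8.42. In the 6 litter pairs with both libraries on the same Mylpf side Col8a2 was higher in the mutant of all 6, and its log2 difference was 0.74 with the Mylpf side as a term and 0.94 among libraries of at least 100.

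Col17a1, the hemidesmosome collagen of epithelium, had the second smallest p in the aortic valve and for the difference between valves, at values of a few reads. It was 1.64, 0.939, 2.80 and 0.741 in mutant pulmonary, 1.71, 0, 0.927 and 0 in WT pulmonary, 4.58, 1.25, 0.631 and 0 in mutant aortic, and 4.89, 2.19, 3.70 and 1.75 in WT aortic libraries. The log2 difference was 0.67 (SE 0.53) in the pulmonary and -0.89 (SE 0.53) in the aortic valve, and the aortic value was -0.53 without mutant library 4 and -1.36 without mutant library 1. The epithelial list ran from 0 to 49.98 over the libraries. Across litter pairs of both valves, Col5a2, Col6a2, Col6a3, Col6a6 and Col18a1 were lower in the mutant in 7 of 8 pairs. Col3a1, Col5a1, Col6a1 and Col16a1 were lower in 6 of 8. Col1a1, Col1a2, Col4a2, Col5a3, Col7a1, Col13a1, Col17a1, Col24a1 and Col25a1 were lower in 5 of 8, and the other members in 4 or fewer. In 6 of the 8 pairs both libraries lie on the same Mylpf side. Among those 6 the mutant was lower in 5 for Col5a2, Col6a2, Col6a3, Col6a6, Col18a1, Col24a1, Col1a1 and Col1a2. It was lower in 4 for Col3a1 and Col5a1, as for many other members. Some litters gave pairs in both valves, and the share of all genes with such pair counts was not determined.

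**Figure D5:**
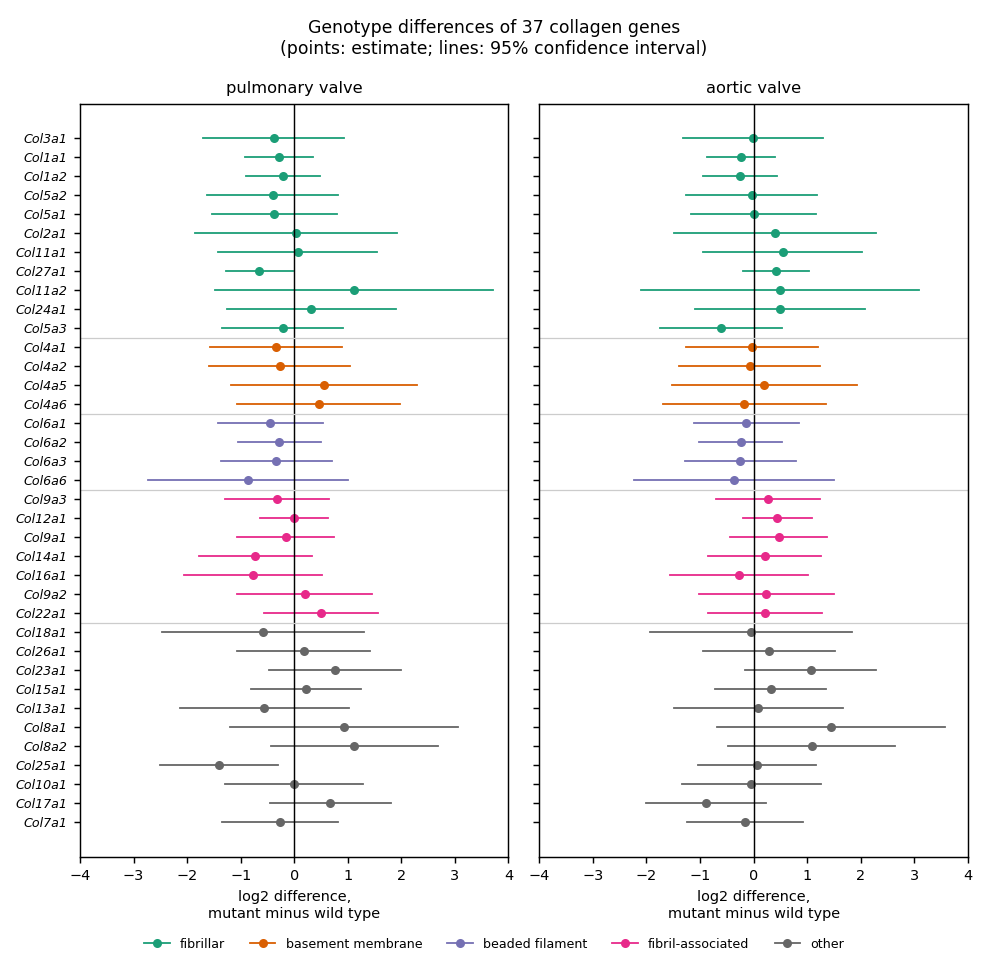
Log2 difference, mutant minus wild type, of each collagen gene in the pulmonary and the aortic valve; points are limma estimates and lines 95% confidence intervals not adjusted for the number of genes. Only Col25a1 (-2.51 to -0.30) and Col27a1 (-1.27 to -0.03) in the pulmonary valve have an interval that leaves out 0.

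Between the valves, no collagen passed either. The pulmonary minus aortic log2 difference, averaged over genotypes, had a median of 0.12 over the 37 genes (24 above 0), against -0.01 over all genes, and valve and library batch cannot be told apart in it. With limma 0 of 37 collagens were called (background 0%), and at an unadjusted p under 0.05 there were 0 (all genes 0.337%). Col9a3 (0.60, SE 0.33) and Col23a1 (-0.71, SE 0.41) had the smallest p. Without WT aortic library 1 the difference of Col9a3 was 0.34. Leaving out 1 library gave -0.02 (without mutant aortic library 1) to 0.21 (without mutant pulmonary library 1) for the median.

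Genes that make and bind collagen were set beside the members. Of the processing list, which holds the hydroxylases, chaperones, export factors, proteinases and cross-linking enzymes of collagen, 36 of 38 were in the table, and of the collagen receptors 9 of 11. With limma, 0 of the 36 and 0 of the 9 were called between genotypes in either valve or in their mean, and at an unadjusted p under 0.05 there were 0 processing genes and, in the mean alone, 2 of 9 receptors (all genes 2.79%). Over the Mylpf split 9 of 36 processing genes and 3 of 9 receptors were higher in every library below 100 and none was lower (background 2.6% and 3.68%). Their median differences over the split, below 100 minus at least 100, were 0.59 and 1.35 on the log2 scale, against 0.01 over all genes. The 9 processing genes were P3h1, P3h3, Plod1, Ppib, Serpinh1, Mia2, Mia3, Bmp1 and Loxl2. The median difference was above 0 for 26 of 36 processing genes and 8 of 9 receptors. Among the processing genes that leaned the other way, with overlap, were Lox (median 51.8 below 100, against 111) and Creb3l1 (14.2, against 33.9).

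P3h3, a collagen hydroxylation factor, was 45.9 to 76.1 below 100 (median 50.9), against 5.02 to 30.3 (median 21), the widest gap of both lists. P3h1, the prolyl 3-hydroxylase of fibrillar collagens, was 45.4 to 68.1, against 17.3 to 37.2. Among receptors, Itgb1, the shared integrin beta chain, was 448 to 551 below 100, against 122 to 388. Itga1, its collagen-binding alpha 1 partner, was 38.8 to 53.6, against 7.67 to 30.9. These genes follow the same side as Col3a1 and Col5a2, and the summed cushion list moves with them too. Of the 8 cushion genes 3 had no overlap (Tbx20, Vcan and Hapln1), and others overlapped, such as Sox9 (107 to 192 below 100, against 62.6 to 250).

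Itga10, a collagen-binding integrin chain of cartilage, had the smallest p of both lists in the genotype fits. It was 7.48, 15.2, 3.64 and 12.1 in mutant pulmonary, 9.55, 30.7, 28 and 23.6 in WT pulmonary, 2.97, 10.02, 9.84 and 6.83 in mutant aortic, and 3.53, 32.4, 25.2 and 28.8 in WT aortic libraries. The mean of both valves was -1.23 on the log2 scale (SE 0.43; limma unadjusted p = 0.0105, adjusted p = 1.00). Adgrg1, an adhesion receptor that binds type III collagen, followed with -0.67 (SE 0.32), and neither passed the threshold.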

How the data were processed

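Per the labels' protocols, valves were isolated by laser microdissection, and PicoPure RNA was amplified by the Ovation V2 kit before Illumina library preparation; no molecular identifiers are mentioned, so reads need not be independent molecules. Per the submitters' processing notes, CASAVA 1.8.2, cutadapt 1.6, FastQC and RSEM 1.2.3 were used with build GRCm38; the annotation, the scaling and the use of strand in counting were not given in the sources used here. Each value deposited by the authors is a scaled signal of 1 gene in 1 library. In every library 100% of the deposited values were whole multiples of 1 step at a tolerance of 0.05 read, which gave the reads behind them, and the values differ by at most 3.68e-07% from CPM scaled with the TMM factors that edgeR 4.0.16 computes from those reads. RSEM divides reads among similar genes, so recovered reads may be rounded estimates.

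Symbols were found for 13780 of 13964 rows. The test was limma 3.58.1 (R 4.3.3) on log2(value + 1), 1 model over 16 libraries with a mean per group and a mean-variance trend, two-sided, with Benjamini-Hochberg adjustment over 13963 genes and a threshold of 0.05. It was also run on simulated independent libraries, with genotype changes larger than that of Jag1 here and no litter pairs or tissue differences. That run does not bear on smaller differences. edgeR's quasi-likelihood test and DESeq2 1.42.0 were run on the recovered reads. The pseudocount of 1 makes the log2 differences of low genes too small. Levels per kilobase divide by the longest protein-coding transcript of the GENCODE vM21 basic set. No test was made over the Mylpf split or over class sums, and correlations between members are not given because the libraries fall into separate clusters.

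The 37 members, gene lists, split and tests were chosen with earlier results of these data known. Values in every library are given for the members with the highest mean in each class (4 fibrillar, 2 of each other class), the 2 with the smallest p in each of 5 fits, and the 2 in each direction with the widest gap over the Mylpf split; of the processing and receptor lists, the 2 with the smallest p and up to 4 with the widest gap are named. Col2a1, Col11a1, Col11a2 and Col6a6 were named after their values were seen, and other members are given by range.

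Within a valve, mutant and wild-type libraries of the same number share a litter per the labels (5 litters, 3 of which gave both valves). Deviations from group means correlated within these pairs at 0.49, -0.03, 0.07 and 0.45 in the pulmonary and 0.48, 0.01, 0.20 and 0.64 in the aortic valve. Replicates correlated at 0.790 to 0.932 over 24 pairs, with a chi-square per gene of at least 24.1, so no pair agreed within sampling noise. Alternatives were pseudocounts of 0.5 and 8, no filter or a mean of at least 10, median-of-ratios and quantile scaling, library weights, litter as replicate block or random effect, the Mylpf side as a term or held fixed, other Mylpf thresholds, and leaving out each library. Leaving out the 5 libraries with Tbx20 below 200 was added after seeing the data.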

Additional observations from a re-analysis of the deposited data

Results flagged for a closer look

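Of 100 group tests over 25 members and sums, 6 had a library whose gap to the nearest other library, as a share of the range of its group of 4, passed Dixon's 95% critical value; chance flags about 1 in 20 groups. In mutant aortic library 1, Col3a1 was 241 (others 1086 to 1132), Col6a3 was 54.7 (others 164 to 175) and the sum of all collagens was 2148 (others 4867 to 5377). In WT pulmonary library 1, Col4a1 was 73.0 (others 245 to 277) and Col8a1 was 38.2 (others 0 to 6.02). Both libraries are among the 5 with Tbx20 below 200, with 102 in mutant aortic library 1 and 119 in WT pulmonary library 1. In WT pulmonary library 2, Col23a1 was 32.3 (others 3.24 to 6.25). The part of tissue composition in these values was not tested.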

How the results depend on the processing

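The share of all genes called under the alternatives is not given here. The count of collagens called was 0 in each of the 5 fits under every alternative that was run. With litter as a replicate block it was 0 in each fit (at an unadjusted limma p under 0.05, 5 in the pulmonary valve, all genes 6.23%, 2 in the aortic valve, all genes 2.96%, 5 in their mean, all genes 5.49%, 4 in the difference between the valves' genotype effects, all genes 3.63%, and 0 between valves, all genes 1.07%), and the smallest adjusted p of a collagen was 0.687, for Col8a2 in the mean of both valves. The number of collagens that did not overlap over the Mylpf split, 6 of 37 (all genes 6.28% in either direction), was 1 with Mylpf at 20 (all genes 3.74%), 0 with Mylpf at 300 (2.95%), 16 in aortic libraries alone (24.3%) and 13 in pulmonary libraries alone (16.3%). Leaving out 1 library at a time gave 6 to 12, with 9 without mutant aortic library 4 (all genes 6.97%) and 12 without WT pulmonary library 3 (8.95%). It was 6 with median-of-ratios scaling (6.27%), 7 with quantile normalisation (6.1%), 5 of the 27 members with a mean of at least 10 (7.78%), and 6 without the 5 libraries with Tbx20 below 200 (7.48%), a choice made after seeing the data. Without those 5 libraries the median log2 difference of the collagens was -0.04 in the pulmonary and -0.09 in the aortic valve, and 0.01 for the difference between them, and Col23a1 in the mean of both valves was 0.42 in place of 0.91. That value was 1.51 among libraries with Mylpf of at least 100 (limma adjusted p = 0.744), 0.25 among those below 100 and 1.06 with the Mylpf side as a term. The median log2 difference in the aortic valve, 0.07, was 0.42 among libraries with Mylpf of at least 100, -0.32 among those below 100 and -0.31 without WT aortic library 1, and the median difference between the valves' genotype effects, -0.30, was -0.61 among libraries of at least 100 and 0.43 among libraries below 100; the cause was not tested. Median-of-ratios scaling moved libraries by -0.016 to 0.063 on the log2 scale. Depth limits the members near 1 normalised count, such as Col5a3, Col7a1, Col10a1, Col17a1, Col22a1 and Col4a6.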
